A study of Mus musculus with 8 samples.

Results

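Acyl-CoA thioesterases (ACOTs) are enzymes that cut a fatty acyl-CoA into a free fatty acid and coenzyme A (CoA), and uncoupling protein 2 (Ucp2) is a carrier of the inner mitochondrial membrane. The set described here holds 9 genes chosen by symbol: Acot1, Acot2, Acot3, Acot4, Acot7, Acot8, Acot12, Acot13 and Ucp2. All 9 were found among the 23504 gene symbols of the deposited count table, and all 9 were among the 14711 genes tested. The RNA was taken from the outer cortex of kidneys dissected by hand, from mice of strain C57Bl6/J, wild type, that received a high fat diet (libraries A, B, F and G) or a control diet (libraries I, J, L and M) for 9 weeks from 6 weeks of age, so that they were 15 weeks old, with 4 libraries per diet. All mice were of the same strain and genotype, and the diets' composition, body weights and sex are not given in the labels, whose titles all carry an unexplained M. The labels do not tie the libraries to individual animals. A p-value here sets the difference between diets against the spread among libraries of a diet, which may be technical. The stated purpose was to find genes that differ between the diets in the renal cortex.

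Fatty acids enter metabolism as CoA esters, and thioesterases run the opposite reaction, which frees CoA and returns the acid. Different members work in the cytosol, the mitochondria and the peroxisomes and prefer different chain lengths, so that the same reaction is available wherever acyl-CoA is used. The proximal tubule, which makes up most of the renal cortex, takes much of its energy from fatty acid oxidation in mitochondria and peroxisomes. Several Acot genes and Ucp2 are known targets of the PPAR receptors, nuclear receptors that fatty acids activate.

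Total expected counts per library, RSEM's estimates of the reads of each gene, ran from 23503593 to 30781585. The ribosomal RNA precursor Rn45s took 50.3% of the counts of control J and 1.23% to 13.3% of the other libraries, so it was left out before normalization, after which control J held 13993652 counts and the deepest library, control M, 30403685. Levels are given as CPM, the counts of a gene scaled to a common library size after TMM normalization without Rn45s. High fat G stood apart in the summed level of 6 red cell genes, at 4194 CPM against 742 to 1837 CPM in the other 7 libraries. The defining proximal tubule genes were abundant in every library, with Slc34a1 at 5261 ± 398 CPM on the control diet and 6614 ± 775 CPM on the high fat diet (SD, n = 4 per diet). Lrp2 went the other way, at 11200 ± 354 and 10110 ± 187 CPM on the control and high fat diets. Of 7 such markers, 5 were higher on the high fat diet by log2 fold change. White and brown fat markers were close to absent, with a summed level of at most 1.68 CPM over 6 white fat genes and at most 1.06 CPM over 4 brown fat genes in any library.

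Ucp2, Acot12 and Acot2 rose on the high fat diet, no member fell, and 6 members did not pass (edgeR quasi-likelihood test, Benjamini-Hochberg adjusted p under 0.05 over all 14711 genes). Over all tested genes, 9.99% were called by the same rule, 4.86% higher and 5.13% lower. None of the 6 other members had an unadjusted p under 0.05. The median log2 fold change (high fat over control) of the 9 members was 0.09, beside -0.0023 for all genes tested. Ucp2 rose 2.10-fold, Acot12 1.43-fold and Acot2 1.38-fold.

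**Figure D1:**
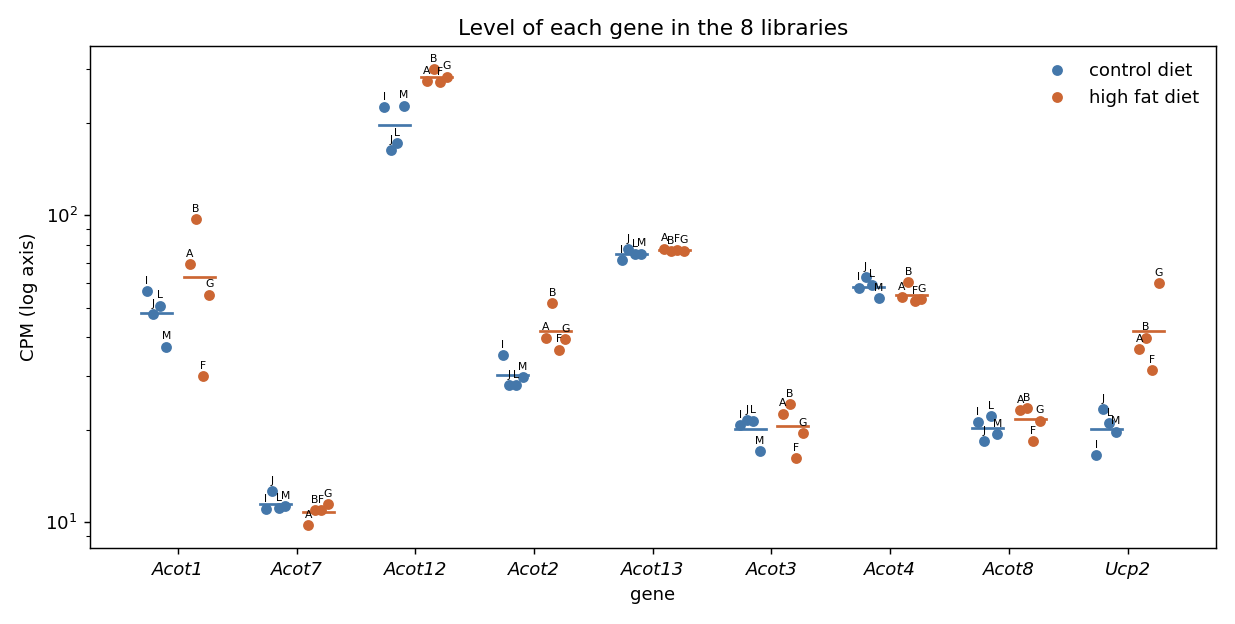
CPM (log axis) of the 9 genes in each of the 8 libraries, with a point per library marked by its letter and a short line at the mean of each diet's 4 libraries. The 4 high fat libraries lie above all 4 control libraries for Acot12, Acot2 and Ucp2, and the diets overlap for the other genes, with Acot1 spread from 29.99 to 97.1 CPM on the high fat diet.

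The promoters of the 3 genes that rose, and of Acot1, the close copy of Acot2 that did not pass, are shown as the 250 bases before the start of the RefSeq gene model (GRCm38.p6, all on the + strand, 5′ to 3′). Capitals mark matches to 6 motifs searched on both strands. The nuclear receptor motifs were AGGTCA, the half-site bound by PPAR and related receptors, and AGGNCANAGGNCA, its direct repeat with a base between. The E-box was searched as CACGTG and the GC box by the letters CCGCCC on either strand. The box that positions the start of many tissue-specific genes was searched as TATAAA, and the motif bound by the factor NF-Y in the form CCAAT. No match overlapped another.
Ucp2, chr7:100493108-100493357: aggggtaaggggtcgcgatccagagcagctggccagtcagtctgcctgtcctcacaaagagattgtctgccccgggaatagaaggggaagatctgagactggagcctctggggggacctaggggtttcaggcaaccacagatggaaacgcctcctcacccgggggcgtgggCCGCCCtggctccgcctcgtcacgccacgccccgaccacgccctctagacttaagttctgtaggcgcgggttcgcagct
Acot12, chr13:91741271-91741520: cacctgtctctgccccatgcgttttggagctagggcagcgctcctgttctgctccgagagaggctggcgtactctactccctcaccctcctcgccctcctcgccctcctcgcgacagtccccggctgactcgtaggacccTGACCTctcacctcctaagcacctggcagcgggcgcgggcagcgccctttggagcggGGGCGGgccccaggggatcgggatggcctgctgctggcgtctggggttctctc
Acot2, chr12:83987611-83987860: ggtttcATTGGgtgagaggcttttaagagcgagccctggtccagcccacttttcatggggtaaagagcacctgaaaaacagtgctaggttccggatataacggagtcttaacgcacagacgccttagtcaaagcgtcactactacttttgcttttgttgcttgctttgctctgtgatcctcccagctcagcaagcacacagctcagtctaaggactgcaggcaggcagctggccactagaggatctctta
Acot1, chr12:84009252-84009501: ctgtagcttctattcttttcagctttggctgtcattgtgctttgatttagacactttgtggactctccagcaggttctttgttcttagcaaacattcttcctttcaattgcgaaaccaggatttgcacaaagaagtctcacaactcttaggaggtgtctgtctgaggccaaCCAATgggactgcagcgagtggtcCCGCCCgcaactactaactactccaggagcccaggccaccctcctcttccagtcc
The half-site AGGTCA occurred once among these 4 windows, in that of Acot12, on the opposite strand, from 110 to 105 bases before the start. Of 32851 RefSeq promoter windows of the same length, 14.0% hold AGGTCA. The direct repeat was in none of these 4 windows and in 0.338% of all. GC boxes lay in the windows of Ucp2, Acot12 and Acot1, a motif that 32.7% of all windows hold, and CCAAT in those of Acot2 and Acot1, against 33.8% of all. CACGTG and TATAAA had no match in these 4 windows, against 6.02% and 12.4% of all. The windows of Ucp2 and Acot12 were 63.6% and 68.4% G or C, those of Acot2 and Acot1 50.4% and 48.8%, beside a median of 52.4% over all windows. A match describes letters only, and these windows do not reach more distant regulatory sequence.

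Ucp2 had the largest change of the set. It encodes a member of the mitochondrial carrier family that is known to limit the formation of reactive oxygen species and to export short dicarboxylates from mitochondria (chromosome 7, 100493337 to 100502020 on GRCm38, GENCODE M21, + strand). On the control diet Ucp2 lay at 16.5 CPM in library I, 23.3 in J, 21.03 in L and 19.7 in M, and on the high fat diet at 36.6 CPM in library A, 39.96 in B, 31.3 in F and 60.1 in G. The groups did not overlap: the lowest high fat library, F, was above the highest control library, J, and G was well above the other high fat libraries. Over all genes tested, the groups did not overlap in 17.5%, with the high fat libraries above in 8.31% and below in 9.20%. The mean rose from 20.2 ± 2.85 to 41.98 ± 12.6 CPM (SD, n = 4 per diet), which is a log2 fold change of 1.07 ± 0.18 (SE; 95% interval 0.67 to 1.47) with adjusted p = 0.0066 in edgeR.

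The rise of Ucp2 was called in every fit without a single library, with log2 fold changes from 0.84 (without high fat G) to 1.19 (without high fat F). Without both control J and high fat G it was 0.91, with adjusted p = 0.012 in edgeR. Ucp2 is also known to be abundant in macrophages and other blood cells. The 7 macrophage markers measured, among them Adgre1, Csf1r and C1qa, summed to 74.4 to 99.7 CPM on the control diet and 77.0 to 99.2 CPM on the high fat diet, and none of the 7 was called. Among the high fat libraries their sum was highest in G, at 99.2 CPM against 77.0 to 88.4 CPM. The 5 lymphocyte markers summed to 15.6 to 22.7 CPM on the control diet and 20.4 to 26.8 CPM on the high fat diet, again highest in G, and neither of the 2 that could be tested was called. Red cell genes summed to 742 to 1837 CPM on the control diet and 808 to 4194 CPM on the high fat diet, with the highest sum in G, which also had the highest Ucp2, and none of the 6 was called. The part of these cells in the level of Ucp2 in G was not tested. In bulk RNA such as this, more cells of a type and more RNA per cell cannot be told apart. Of the 50-base windows of Ucp2 6.50% match the opposite strand of another gene, most often Dnajb13. Dnajb13 lay at 0.055 and 0.085 CPM on the control and high fat diets, and the expected counts of Ucp2 were whole in all 8 libraries. In the authors' deposited table of comparisons Ucp2 had a fold of 2.09, with a posterior probability of equal expression of 0.0359.

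Ucp1 and Ucp3 gave almost no signal. Ucp3, the neighbour of Ucp2 that is known from muscle and ends 6.91 kb before it, had between 0 and 6 expected counts per library, and Ucp1, the heat-producing protein of brown fat, between 1 and 14. Both were too low to be tested. Of 11 tested members of a list of other uncoupling proteins and carriers of the inner membrane, 2 rose, none fell and 9 did not pass. The list's median log2 fold change was -0.0025, and over all tested genes 4.86% were called higher and 5.13% lower. Slc25a14 and Slc25a27, further uncoupling proteins of this list, were low but could be tested. Slc25a14 lay at 4.12 and 4.06 CPM and Slc25a27 at 2.37 and 2.53 CPM on the control and high fat diets. Neither passed. Slc25a30, the kidney mitochondrial carrier related to the uncoupling proteins, rose from 45.4 ± 5.77 to 84.3 ± 13.6 CPM (SD, n = 4), which is a log2 fold change of 0.89 (adjusted p = 0.0023 in edgeR). Slc25a10, the dicarboxylate carrier, rose from 403 ± 10.2 to 496 ± 23.6 CPM (SD, n = 4), which is a log2 fold change of 0.30 (adjusted p = 0.0081 in edgeR). The adenine nucleotide carriers Slc25a4 and Slc25a5, the most familiar proteins of this family, had log2 fold changes of -0.0025 and -0.13 and did not pass. Both calls held in the fit that left out control J, and that of Slc25a30 also in the fit without the pair of control J and high fat G.

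Among the cytosolic thioesterases, Acot12 rose and Acot1 and Acot7 did not pass. Acot12 hydrolyses acetyl-CoA and is best known from liver (chromosome 13, 91741512 to 91786148, + strand). Its control levels were 225 CPM in library I, 163 in J, 172 in L and 228 in M, and its high fat levels 274 CPM in A, 301 in B, 272 in F and 283 in G. The high fat libraries were close together and all above the control libraries, which fell into a higher pair, I and M, and a lower pair, J and L. The mean rose from 197 ± 34.4 to 282 ± 12.98 CPM (SD, n = 4 per diet), which is a log2 fold change of 0.52 ± 0.11 (SE; 95% interval 0.29 to 0.75) with adjusted p = 0.014 in edgeR.

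The call of Acot12 held in all 8 fits without a single library, with log2 fold changes from 0.44 (without control J) to 0.59 (without control M). It was lost when control J and high fat G were both left out, at 0.44 and adjusted p = 0.0675 in edgeR. It was also lost with limma on the deposited FPKM, at a log2 fold change of 0.69 ± 0.32 (SE, pseudocount 0.1), and held on FPKM rescaled to the total without Rn45s, at 0.52 ± 0.13 and adjusted p = 0.035 in limma. The authors' deposited table gave a fold of 1.44 for Acot12 with a posterior probability of equal expression of 0.00261; Acot12 and Ucp2 are the members it lists. A non-coding gene on the opposite strand, 4833422C13Rik, overlaps Acot12 and rose too, from 2.56 ± 0.147 to 4.96 ± 0.876 CPM (SD, n = 4), which is a log2 fold change of 0.95 (adjusted p = 0.0038 in edgeR). The use of strand in the counting is not stated, so reads of these 2 genes may not be separable, although Acot12 was far the higher of them. Of the 50-base windows of the Acot12 transcript, 3.32% occur on the opposite strand of another transcript and none in another gene on the same strand.

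Markers of the cell types that could hold Acot12 were measured beside it. The summed level of 7 proximal tubule markers was 39310 to 47000 CPM on the control diet and 46189 to 51560 CPM on the high fat diet, lowest in control J, where Acot12 was lowest as well. Of the 7, Slc34a1 rose and 6 did not pass, with Lrp2 at a log2 fold change of -0.15. Kap weighed most in the sum, at 20168 ± 2623 and 24053 ± 2492 CPM on the control and high fat diets (SD, n = 4). The 3 thick ascending limb markers summed to 3278 to 3910 CPM on the control diet and 2634 to 3349 CPM on the high fat diet, and 2 of them fell. The 3 intercalated cell markers summed to 165 to 192 and 136 to 159 CPM on the control and high fat diets, without overlap. Principal cell markers gave 182 to 271 and 171 to 216 CPM, and Scnn1g fell (adjusted p = 0.0037 in edgeR). Podocyte markers gave 260 to 277 and 240 to 265 CPM. Every marker of these lists had a log2 fold change below 0. The 2 distal convoluted tubule markers and 2 of 4 endothelial markers lay above 0. The 4 liver markers summed to 80.2 to 115 CPM and 120 to 199 CPM on the control and high fat diets. Of them Ttr rose, from 82.4 ± 14.8 to 151 ± 34.7 CPM (SD, n = 4), while Alb, the most specific of them, lay at 12.0 ± 2.45 and 9.03 ± 2.88 CPM on the control and high fat diets (SD, n = 4) and did not pass. The part of these cell types in the rise of Acot12 was not tested.

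Acot1, the cytosolic enzyme for long-chain acyl-CoA and a well-known PPARα target, was the most variable member (chromosome 12, 84009490 to 84018371, + strand). Control levels were 56.5 CPM in I, 47.8 in J, 50.8 in L and 37.3 in M, and high fat levels 69.2 CPM in A, 97.1 in B, 29.99 in F and 55.2 in G. High fat F was the lowest and high fat B the highest of all 8 libraries, so the high fat values lay on both sides of the control values. The means were 48.1 ± 8.06 and 62.9 ± 28.0 CPM (SD, n = 4 per diet), which is a log2 fold change of 0.39 ± 0.27 (SE; 95% interval -0.21 to 0.98) with adjusted p = 0.39 in edgeR. Single libraries set its size: the log2 fold change was 0.10 without high fat B and 0.62 without high fat F, where the adjusted p was 0.078 in edgeR. The interval reaches from a small fall to about the change of Ucp2, so that a rise of Acot1 was not detectable at this spread, and its absence was not shown.

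Acot7, a cytosolic enzyme known mainly from brain, was the lowest thioesterase of the set in CPM (chromosome 4, 152178134 to 152271855, + strand). It lay between 11.0 and 12.6 CPM on the control diet and between 9.75 and 11.5 CPM on the high fat diet, from 162 to 356 expected counts per library. The groups overlapped, at a log2 fold change of -0.09 ± 0.083 (SE; 95% interval -0.27 to 0.10) with adjusted p = 0.55 in edgeR.

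Acot2 rose and is the close copy of Acot1 that carries its enzyme into the mitochondrial matrix, where it acts on long-chain acyl-CoA (chromosome 12, 83987861 to 83993873, + strand). Its control levels were 35.1 CPM in I, 27.9 in J, 27.9 in L and 29.7 in M, and its high fat levels 39.9 CPM in A, 51.6 in B, 36.5 in F and 39.5 in G. The groups did not overlap, but the gap between control I and high fat F was small. The mean rose from 30.2 ± 3.40 to 41.9 ± 6.67 CPM (SD, n = 4 per diet), which is a log2 fold change of 0.47 ± 0.11 (SE; 95% interval 0.23 to 0.71) with adjusted p = 0.025 in edgeR. The call was lost without control J (adjusted p = 0.0674 in edgeR), without control L (adjusted p = 0.066 in edgeR) and with control J and high fat G both left out (adjusted p = 0.102 in edgeR), where the log2 fold changes were 0.44, 0.43 and 0.46. It was also lost with limma on the deposited FPKM, at 0.62 ± 0.32 (SE, pseudocount 0.1), and held on the rescaled FPKM, at 0.45 ± 0.12 and adjusted p = 0.044 in limma.

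Reads of Acot1 and Acot2 cannot be fully separated. Their coding sequences share a run of 273 identical bases in exon 3 of 3, the start of which is shown with the bases before it, from GENCODE M21 transcripts on GRCm38 (+ strand, 5′ to 3′); capitals mark the 6 bases that differ between the genes in this stretch.
Acot1, chr12:84016986-84017065: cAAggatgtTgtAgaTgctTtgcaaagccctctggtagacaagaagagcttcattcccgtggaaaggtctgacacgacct
Acot2, chr12:83992708-83992787: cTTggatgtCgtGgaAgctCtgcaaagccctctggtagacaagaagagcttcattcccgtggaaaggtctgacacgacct
Of the 50-base windows of the Acot1 transcript 23.7% also occur in Acot2, and of those of Acot2 24.5% occur in Acot1. RSEM shares such reads by likelihood, and the expected counts of both genes were not whole in any of the 8 libraries (tolerance 0.005), whereas those of Ucp2, Acot7 and Acot13 were whole in all 8. Those of Acot3 and Acot12 were whole in none either, and those of Acot4 in 1, so counts that are not whole also occurred for Acot12, which shares no window with another gene on its strand. The sum of Acot1 and Acot2 does not depend on how reads are split between them. It was 91.7 CPM in control I, 75.7 in J, 78.7 in L and 67.0 in M, and 109 CPM in high fat A, 149 in B, 66.5 in F and 94.7 in G. The sums overlapped between the diets because of high fat F, the lowest of all, with means of 78.3 ± 10.2 and 105 ± 34.3 CPM (SD, n = 4 per diet). The Acot1 to Acot2 ratio of FPKM was 1.17 in high fat F and 1.79 to 2.68 in the other 7 libraries.

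Acot13 (also called Them2), a small thioesterase that associates with mitochondria and prefers long-chain acyl-CoA, was the steadiest member (chromosome 13, 24817948 to 24831540, - strand). It lay at 71.2 CPM in control I, 77.8 in J, 74.9 in L and 75.0 in M, and at 77.9 CPM in high fat A, 76.5 in B, 77.3 in F and 76.7 in G. The groups overlapped through control J, and the high fat libraries differed by little more than 1 CPM. The means of 74.8 ± 2.69 and 77.1 ± 0.639 CPM (SD, n = 4 per diet) gave a log2 fold change of 0.05 ± 0.048 (SE; 95% interval -0.06 to 0.15) with adjusted p = 0.59 in edgeR, the narrowest interval of the set. In a further fit, each library's trend of log2 CPM with transcript length, taken relative to each gene's mean, was removed. The log2 fold change of Acot13 was then 0.12, with adjusted p = 0.18 in edgeR.

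The peroxisomal members Acot3, Acot4 and Acot8 did not pass. Acot4, known for the hydrolysis of succinyl-CoA in peroxisomes (chromosome 12, 84038379 to 84048601, + strand), lay between 53.8 and 62.8 CPM on the control diet and between 52.6 and 60.5 CPM on the high fat diet, a log2 fold change of -0.08 ± 0.066 (SE; 95% interval -0.23 to 0.06) with adjusted p = 0.44 in edgeR. Acot3, a long-chain enzyme (chromosome 12, 84052144 to 84060402, + strand), lay between 17.0 and 21.5 CPM on the control diet and between 16.2 and 24.2 CPM on the high fat diet, a log2 fold change of 0.04 ± 0.12 (SE; 95% interval -0.23 to 0.31) with adjusted p = 0.87 in edgeR. Acot8, a thioesterase of wide chain-length range that also acts on bile acid CoA esters (chromosome 2, 164792765 to 164804882, - strand), lay between 18.4 and 22.2 CPM on the control diet and between 18.4 and 23.5 CPM on the high fat diet, a log2 fold change of 0.09 ± 0.090 (SE; 95% interval -0.11 to 0.29) with adjusted p = 0.58 in edgeR. The diets overlapped for all 3. Acot3 shares 19.5% of its 50-base windows with other genes on the same strand, so its counts may include reads of those genes. Of the windows of Acot8 17.7% match the opposite strand of another gene, most often Snx21. Snx21 lay at 11.3 and 11.4 CPM on the control and high fat diets, and the expected counts of Acot8 were whole in 7 of 8 libraries. The intervals of Acot3, Acot4 and Acot8 each leave out a rise as large as that of Acot12.

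**Figure D2:**
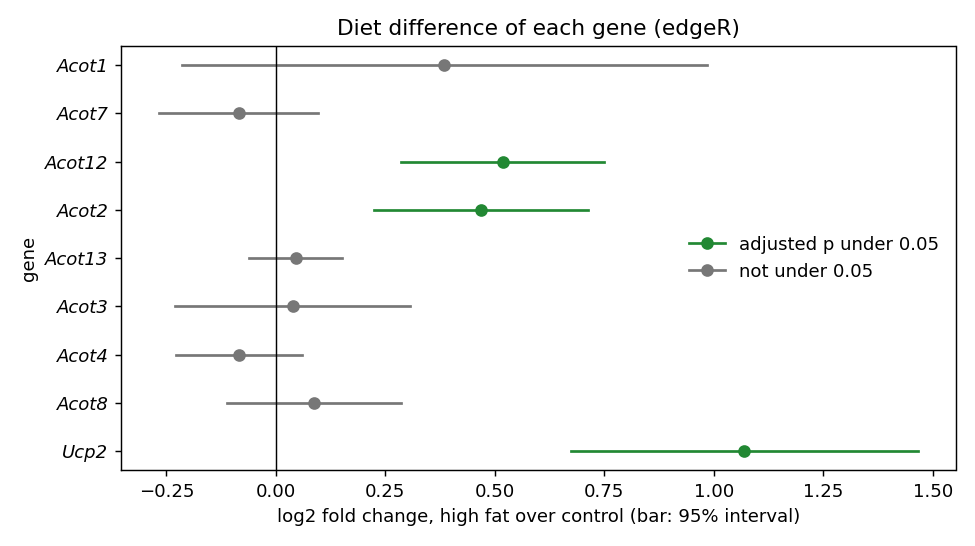
Log2 fold change of each of the 9 genes between the diets (x axis, high fat over control) with its 95% interval from the edgeR fit, n = 4 libraries per diet. The intervals of Acot12, Acot2 and Ucp2 lie above 0, that of Acot1 is the widest, from -0.21 to 0.98, and that of Acot13 the narrowest, from -0.06 to 0.15.

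Levels of different genes can be compared only per length. The authors' FPKM (fragments per kilobase of transcript, scaled to the library's total) were therefore put on each library's total without Rn45s. On the control diet the order of the genes was Acot13 at 118 ± 5.71, Acot12 at 66.2 ± 14.0, Acot1 at 32.0 ± 5.68, Acot4 at 25.8 ± 1.07, Acot8 at 18.6 ± 2.44, Acot2 at 14.1 ± 1.999, Acot7 at 7.97 ± 0.125, Acot3 at 7.92 ± 0.769 and Ucp2 at 4.93 ± 0.549 rescaled FPKM (SD, n = 4). The ranges of neighbours in that order overlapped between Acot1 and Acot4, between Acot8 and Acot2, and between Acot7 and Acot3, and were separate between Acot13 and Acot12. Ucp2 lay below every thioesterase of the set in all 4 control libraries, at 4.13 to 5.32 rescaled FPKM. On the high fat diet it reached 7.70 to 14.7 and overlapped Acot3 (6.40 to 9.38) and Acot7 (6.68 to 7.96). Acot2, at 17.1 to 23.6 on that diet, stood level with Acot8, at 16.8 to 21.01.

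Acot13 and Acot12 together made up most of the thioesterase signal. Acot13 supplied 32.2% to 43.2% of the summed rescaled FPKM of the 8 thioesterase genes in a library, and Acot12 19.2% to 29.9%. The mean share of Acot12 was 22.6% on the control diet and 28.1% on the high fat diet, while that of Acot13 was 40.8% and 36.4%. Shares add up to a whole, so a lower share of one gene does not mean less of its RNA. Acot4 showed this: its share was 8.18% to 9.76% in the control libraries and 7.00% to 7.61% in the high fat libraries, without overlap, though its own level did not pass. By compartment, the cytosolic genes (Acot1, Acot7 and Acot12) summed to 86.7 to 123 rescaled FPKM on the control diet and 119 to 169 on the high fat diet, which overlapped, with means that differed 1.34-fold. In CPM the same sum did not overlap, at 223 to 293 and 313 to 409. The mitochondrial and mitochondria-associated genes (Acot2 and Acot13) summed to 124 to 138 and 140 to 142, without overlap and with means that differed 1.06-fold. The peroxisomal genes (Acot3, Acot4 and Acot8) summed to 48.2 to 56.7 and 46.5 to 56.5, which overlapped.

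**Figure D3:**
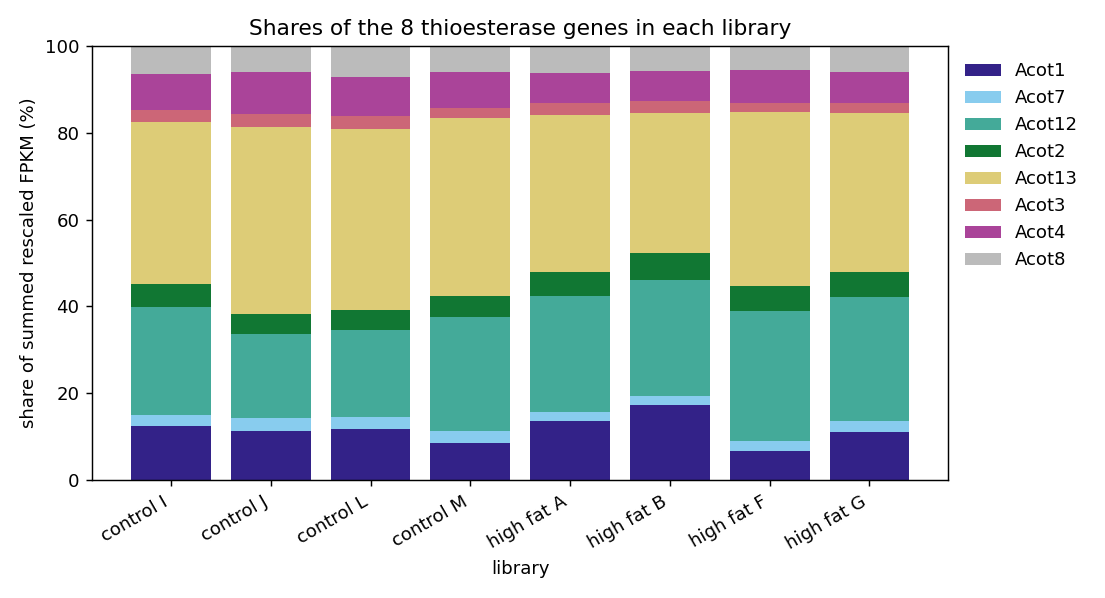
Share of each of the 8 thioesterase genes in their summed rescaled FPKM (y axis, percent) in each of the 8 libraries (x axis). Acot13 and Acot12 take the widest bands in every library, and the band of Acot1 runs from 6.56% in high fat F to 17.2% in high fat B.

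The members did not vary as 1 group. After each diet's mean was subtracted, log2 CPM of Acot1 and Acot3 had a Pearson r of 0.94 over the 8 libraries and Acot1 and Acot8 had 0.84, whereas Acot12 and Ucp2 had -0.29 and Acot2 and Ucp2 -0.17. Values in one library share its depth and normalization, and Acot1 and Acot3 also share sequence with close copies, so these are descriptions of 8 points. Among the high fat libraries, B was the highest and F the lowest for Acot1, Acot2, Acot3, Acot4, Acot8 and Acot12. Ucp2 was lowest in F too but highest in G, and Acot7 and Acot13 were highest in G and A.

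By the same description, the genes of at least 5 CPM whose log2 CPM followed Acot12 most closely over all 8 libraries were Trim63, Pank1 and Map3k2, with a Pearson r of 0.97 to 0.99, of 10889 genes compared. Pank1 encodes pantothenate kinase, the first step of CoA synthesis, and Trim63 a ubiquitin ligase known from muscle. Pank1 also had an r of 0.96 with Acot12 after the diet means were subtracted. For Acot2 the closest were Atad2, Fitm2 (which promotes the storage of fat in droplets) and Pnpla7 (a lysophospholipase), with an r of 0.97 to 0.98. For Ucp2 they were Spon1, Dcp1b and Plscr4, with an r of 0.97 to 0.98 and, after the diet means were subtracted, of 0.89. With 8 libraries many genes come this close: 140, 86 and 47 genes had an r above 0.9 with Acot12, Acot2 and Ucp2.

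The 4 cluster members lie with Acot5 and Acot6 on chromosome 12, 83987861 to 84111349, a stretch of 123.5 kb in which all 6 genes are on the + strand. Acot6, a peroxisomal member of the same group, lay at 6.75 ± 0.795 and 7.85 ± 1.21 CPM on the control and high fat diets (SD, n = 4) and did not pass (adjusted p = 0.35 in edgeR). Acot5 had at most 3.05 expected counts in a library and was not tested. Of the cluster, then, Acot2 was called, and no test compared it with its neighbours. The sum over Acot1 to Acot6 was 145 to 178 CPM on the control diet and 144 to 242 CPM on the high fat diet, which overlapped. Of 36 tested genes within 100 kb of a member, 2 rose, none fell and 34 did not pass. Over all tested genes 4.86% were called higher and 5.13% lower, so a few calls are usual in a list of this size. The 2 neighbours that rose were 4833422C13Rik, which overlaps Acot12, and Ctsa, the lysosomal cathepsin A near Acot8. Ctsa went from 267 ± 4.196 to 303 ± 11.0 CPM (SD, n = 4) at an adjusted p of 0.039 in edgeR.

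Among 10 other tested thioesterases, Acot11 rose, none fell and 9 did not pass. Their median log2 fold change was 0.01, and over all tested genes 4.86% were called higher and 5.13% lower. Acot11 (also called Them1) hydrolyses long-chain acyl-CoA and is best known from brown fat. It rose from 57.8 ± 4.51 to 83.3 ± 9.77 CPM (SD, n = 4), which is a log2 fold change of 0.53 ± 0.087 (SE) (adjusted p = 0.0060 in edgeR), and the authors' deposited table gave a fold of 1.45. Its rise was about as large as that of Acot12, and it was still called with both control J and high fat G left out. Acot9, a mitochondrial thioesterase, lay at 51.0 ± 5.18 and 47.4 ± 3.85 CPM on the control and high fat diets (SD, n = 4) and did not pass.

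Genes that make, carry and break down CoA were measured as the partner side of the thioesterase reaction. Of 15 tested members of that list 4 rose, none fell and 11 did not pass, beside 4.86% higher and 5.13% lower over all tested genes. The list's median log2 fold change was 0.15, beside -0.0023 for all genes. Slc25a42, which carries CoA into mitochondria, rose from 37.9 ± 3.45 to 72.3 ± 18.9 CPM (SD, n = 4), which is a log2 fold change of 0.94 (adjusted p = 0.0054 in edgeR). Nudt19, a peroxisomal CoA-cleaving enzyme prominent in kidney, rose from 794 ± 180 to 1233 ± 91.4 CPM (SD, n = 4), which is a log2 fold change of 0.64 (adjusted p = 0.017 in edgeR). Pank1 rose from 274 ± 58.7 to 399 ± 13.4 CPM and Coasy, the last enzyme of CoA synthesis, from 194 ± 11.9 to 232 ± 10.5 CPM (SD, n = 4 for each), with adjusted p = 0.022 and 0.021 in edgeR. Slc25a42 and Nudt19 kept their calls when control J was left out, and Slc25a42 when high fat G was left out as well; Pank1 and Coasy lost theirs in both fits.

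Of 34 other tested targets of PPARα, 9 rose, none fell and 25 did not pass, beside 4.86% higher and 5.13% lower over all tested genes. The targets' median log2 fold change was 0.21. The 4 targets with the smallest p were Plin5, Pdk4, Cpt1a and Crat. Plin5, a coat protein of lipid droplets, rose by 1.57 ± 0.25, Pdk4, which restrains pyruvate oxidation, by 2.27 ± 0.37, Cpt1a, the entry step of long chains into mitochondria, by 0.44 ± 0.074, and Crat, carnitine acetyltransferase, by 0.29 ± 0.052 on the log2 scale (SE). Leaving out control J left 6 of the list called, and leaving out high fat G as well left 3 (Cpt1a, Pdk4 and Plin5). Without high fat F 13 of 35 tested were called, and without any other single library 8 or 9. Pank1 is in this list as well as in that of CoA. Ppara itself rose from 213 ± 18.96 to 297 ± 3.40 CPM (SD, n = 4) at an adjusted p of 0.0024 in edgeR, while the 7 other genes of the list of PPAR receptors and partners did not pass. With limma on the deposited FPKM, Ppara, Cpt1a and Crat were not called and 4 of the targets were (Angptl4, Cyp4a14, Pdk4 and Plin5), while on the rescaled FPKM Ppara and 9 targets were called, Cpt1a and Crat among them. Acot1, often used as a readout of this receptor, is thus among the targets whose groups overlapped, with high fat F at 29.99 CPM.

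**Figure D4:**
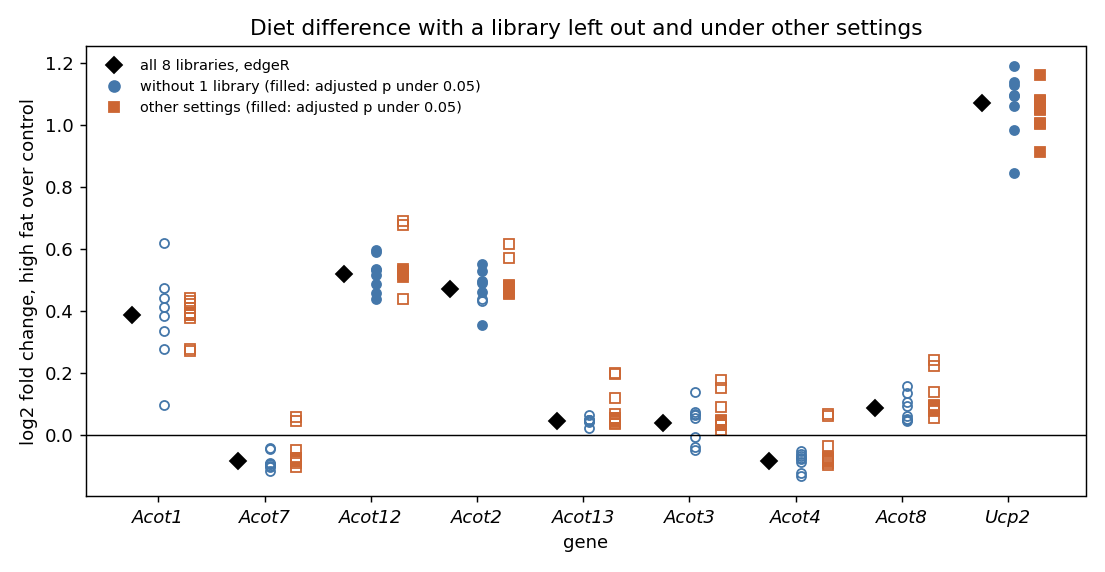
Log2 fold change (y axis, high fat over control) of each gene with all 8 libraries (diamonds), without 1 library (circles, 8 per gene) and under 12 other settings (squares); filled symbols other than diamonds mark an adjusted p under 0.05. Ucp2 is filled throughout, Acot12 and Acot2 are open in some settings, and the 6 other genes are open in all of them, with Acot1 ranging from 0.10 to 0.62.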

How the data were processed

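Outer renal cortex RNA of 8 libraries, 4 per diet, was sequenced after library preparation from 1 ug of total RNA with a TruSeq kit with Ribo-Zero Gold, per the labels. The tools named in the submitters' processing notes are RSEM 1.2.9 and CASAVA 1.8.2, and the build is mm10. The authors deposited expected counts per gene symbol, FPKM per gene, and for listed genes a fold (ratio) and a posterior probability of equal expression, with no tool named. A further table of comparisons by Ensembl gene was not used.

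Expected counts were rounded, Rn45s was left out, and genes kept by filterByExpr were fitted with edgeR 4.0.16 in R 4.3.3 (TMM, quasi-likelihood F test, diet as the only term). Standard errors are the log2 fold change divided by the root of F. The procedure was run on data simulated with the spread fitted to these libraries, a check that required recovery of large changes only. The check set no requirement for false calls or for changes as small as those of Acot12 and Acot2. Its records of these are not reported here, and no conclusion is drawn from them. Alternatives used DESeq2 1.42.0, limma 3.58.1, other filters and fewer libraries; a robust fit, rescaled FPKM and removal of the length trend were added after seeing the data. The members and lists were chosen with earlier results of these data known. Named genes are the 9 members, up to 4 called genes of each list with the smallest p, Acot5, Acot6, Ucp1, Ucp3, called neighbours and the 3 genes most like each called member; others are named to describe a list or marker sum and were chosen after their values were seen. No library was paired with another.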

Additional observations from a re-analysis of the deposited data

Results flagged for a closer look

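Acot7 in control J, at 12.6 CPM, lay apart from the other 3 control libraries, which ran from 11.0 to 11.2 CPM; the gap took 0.865 of the range of the 4 values, above Dixon's critical value for 4 values. Of 18 groups examined (9 genes in 2 diets) this was the only 1, and chance gives such a gap in about 1 of 20 groups. Control J had the fewest counts without Rn45s, and Acot7 rested on 162 expected counts there. The part of depth in this value was not tested.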

How the results depend on the processing

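Ucp2 was called under all 20 alternatives, Acot12 under 17 and Acot2 under 15, always higher on the high fat diet, and the other members under none. The 3 members called higher became 1 (Ucp2) with limma on the deposited FPKM, with a pseudocount of 0.1 and of 1, in which Rn45s still counts toward each library's total, and also became 1 when control J and high fat G were both left out. Genes called went from 1469 to 91 and 98 in those FPKM fits, to 873 on log2(rescaled FPKM + 0.1), to 417 with that pair left out, and to between 739 and 1528 without a single library. The FPKM fits moved the median of all genes to 0.14 and 0.11 on the log2 scale, and there Acot4 (0.067 and 0.062) and Acot7 (0.058 and 0.045) changed sign, below that shift. Without a single library Acot3 ranged from -0.048 to 0.14. In the fits on deposited FPKM the log2 fold changes did not shrink, at 0.69 and 0.68 for Acot12 and 0.62 and 0.57 for Acot2, but the SE of Acot12 was 0.32 and 0.31 against 0.11. Acot11, the CoA genes, the carriers and Ppara were not called there, and 4 PPARα targets were against 9. On FPKM rescaled to the total without Rn45s, Acot12, Acot2, Ucp2, Acot11, both carriers, Ppara, 9 PPARα targets and 3 of 4 CoA genes (not Coasy) were called. The fits without control J and high fat G have fewer samples. Acot7 has the fewest counts of the set, 162 to 356 per library. No paired analysis was possible because the library letters differ between the diets.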
